A study of Caenorhabditis elegans with 2 samples.

Results

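The homeobox genes of Caenorhabditis elegans that carry a ceh name and lie outside the Hox cluster were examined for CEH-16 occupancy. The members were the protein-coding genes of the Ensembl annotation named ceh plus a number, with 5 left out: ceh-13, ceh-16, ceh-20, ceh-40 and ceh-60. This gave 58 of 19973 nuclear protein-coding genes. The RefSeq product names of 56 of the 58 contain the word homeobox or homeodomain. The other 2, ceh-48 and ceh-49, are named there as members of the One cut domain family, a homeodomain family.

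Binding of CEH-16 was measured by ChIP-seq in whole L3 larvae of both sexes, in 2 biological replicates of a single condition, with no second condition to set against it. The worms were of strain OP82, genotype unc-119(tm4063) III with the insertion wgIs82, and expressed CEH-16 with a GFP-FLAG tag at its C terminus. The labels do not say which promoter drives the tagged protein. Peaks were given in 4 lists on ce11, for replicate 1 (19150 peaks), replicate 2 (30000), the pooled replicates (30000), and the pooled peaks that passed the authors' reproducibility threshold (214, called the thresholded list). The labels call the replicate and pooled lists peaks and background, the input to that threshold, so an entry there need not be a bound site. Each entry has a summit and a signal set by the authors on a scale they do not name. In whole animals, occupancy in few cells and weak occupancy in many cells cannot be told apart.

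Homeobox genes encode transcription factors that bind DNA through a homeodomain, whose recognition helix lies in the major groove, and many homeodomains, those of the engrailed family among them, prefer sites with a TAAT core. In the worm, homeobox genes are best known for fixing cell identity, above all in neurons, and a neuron class can be told from others by the homeobox genes it expresses. CEH-16 is the engrailed homologue of the worm and acts in the seam cells, the lateral stem-like cells of the epidermis.

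Of the 58 genes, 1 had a thresholded summit in its window, the gene body plus 2000 bp upstream. This was ceh-62. A second gene, ceh-86, had a thresholded summit 4839 bp upstream of its start, outside its window. Both summits lay within 50 bp of the palindromic engrailed-type core TAATTA. The sequences under them are shown with those of the strongest summits of ceh-27, ceh-28 and ceh-18. Together they show where TAATTA occurs and where it does not. Those of ceh-27 and ceh-28 hold no TAATTA but do hold the shorter TAAT. The stronger ceh-5 summit (pooled signal 32.9), also in the windows of 2 other genes, had no TAATTA within 50 bp and is not shown. These examples are not a share: the core lay near 7.29% of the 96 pooled summits in the 58 windows, against 5.24% of all nuclear pooled summits. The sequences are printed on the plus strand of ce11, 50 bp to each side of the summit, with TAATTA in capitals.
ceh-62, chrII:10804603-10804703: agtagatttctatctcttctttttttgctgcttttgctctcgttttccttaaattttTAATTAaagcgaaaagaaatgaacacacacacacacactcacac
ceh-86, chrII:2436861-2436961: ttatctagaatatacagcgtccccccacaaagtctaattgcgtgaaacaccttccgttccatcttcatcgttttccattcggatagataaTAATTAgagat
ceh-27, chrV:11663179-11663279: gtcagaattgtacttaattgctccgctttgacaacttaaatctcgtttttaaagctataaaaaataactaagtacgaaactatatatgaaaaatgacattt
ceh-28, chrX:13073799-13073899: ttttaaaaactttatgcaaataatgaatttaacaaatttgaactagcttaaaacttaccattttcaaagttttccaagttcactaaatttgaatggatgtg
ceh-18, chrX:3851996-3852096: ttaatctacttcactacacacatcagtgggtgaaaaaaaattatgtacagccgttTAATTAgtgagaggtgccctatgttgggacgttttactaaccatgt

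The ceh-62 summit, at II 10804653, lay 1084 bp upstream of the start of the gene (II from 10805737 to 10808611) and in no other gene's window. Its signal was 24.8 in replicate 1 and 21.2 in replicate 2. In the pooled list it was 44.9, rank 194 of 30000, close to the lowest signal of the thresholded list (43.6). The summit ranked 126 in replicate 1 and 851 in replicate 2, so it was among the 214 strongest of replicate 1 alone. With replicate 1 left out, none of the 58 windows held one of the 214 strongest peaks. The centre of the TAATTA core lay 9.5 bp from this summit. The window held 3 more pooled summits, in the coding sequence (17.2), an intron (12.6) and just upstream of the start (11.7). The intronic summit, at II 10806496, also had a TAATTA core, its centre 3.5 bp away, but no summit of either replicate within 200 bp.

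The ceh-86 summit, at II 2436911, was stronger. Its signal was 27.5 in replicate 1, 33.9 in replicate 2 and 60.7 in the pooled list, rank 91. The start of ceh-86 was the nearest gene start. The TAATTA core lay 42.5 bp from this summit, near the edge of the 50 bp examined. Within its own window ceh-86 (II from 2426366 to 2432072) had 1 summit, in the replicate 2 list at 9.21, and none in the pooled list. The next closest thresholded summit to any of the 58 starts was 13496 bp away, from ceh-54.

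The share of ceh genes with a summit was close to that of all genes. The pooled list had a summit in the windows of 44 of the 58 genes, or 75.9% (exact 95% interval 62.8 to 86.1, counting error only), against 72.5% of all 19973 genes. For the thresholded list the count was 1 of 58, or 1.72% (0.0436 to 9.24), against 1.19% of all genes. Shares this near to the background are no result about the family. By nearest start in place of the window, 43 genes (74.1%) had a pooled summit, against 67.5% of all genes, and 2 (3.45%, interval 0.42 to 11.9) had a thresholded one, against 0.931%.

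In each replicate list the share of ceh genes had an interval that included the share of all genes. Replicate 1 had a summit in 41 windows (70.7%, interval 57.3 to 81.9), against 57.8% of all genes. Replicate 2 had a summit in 39 windows (67.2%, interval 53.7 to 79.0), against 72.7% of all genes. Both replicate lists had a summit for 28 genes (48.3%, interval 35.0 to 61.8), against 47.0% of all genes.

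**Figure D1:**
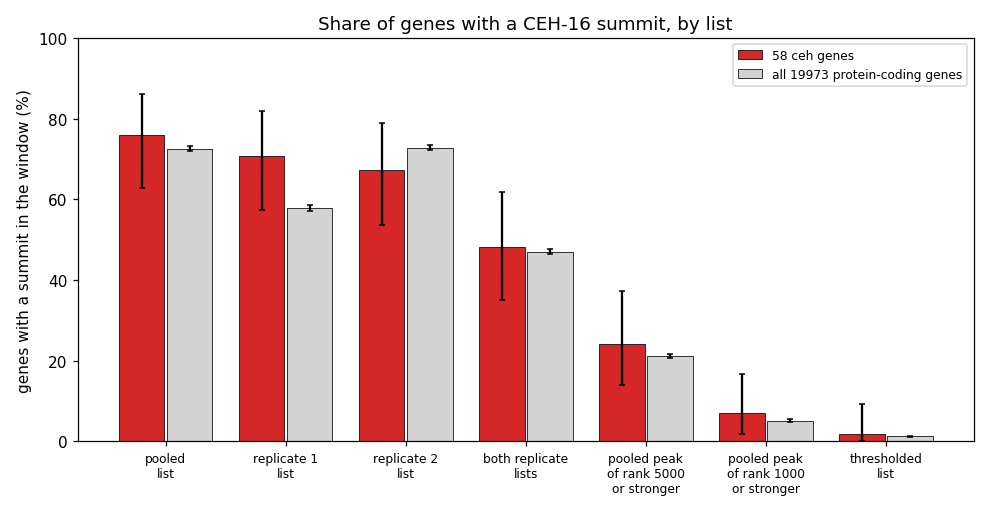
Share of genes whose window holds a summit, in percent, for the 58 ceh genes (red, left) and all 19973 protein-coding genes (grey, right), for each list and for strong pooled peaks. Bars carry exact 95% intervals. The pooled bars stand at 75.9% and 72.5%, and the thresholded bars at 1.72% and 1.19%.

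Strong peaks followed the same pattern. A pooled peak of rank 1000 or stronger lay in 4 windows (6.90%, interval 1.91 to 16.7), against 5.15% of all genes, and one of rank 5000 or stronger in 14 (24.1%, interval 13.9 to 37.2), against 21.1%. These rank limits were chosen after the values were seen. The median over all 58 genes of the strongest pooled signal, with genes without a summit set to 0, was 15.2 (interval 13.1 to 16.4), against 15.0 for all genes (14.9 to 15.1). The windows held 96 pooled summits in 317 kb, or 0.302 summits per kb (exact Poisson 95% interval 0.245 to 0.369), against 0.303 for all genes. The median signal was 15.2 for these 96 summits and 15.1 for all 29975 nuclear pooled summits.

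**Figure D2:**
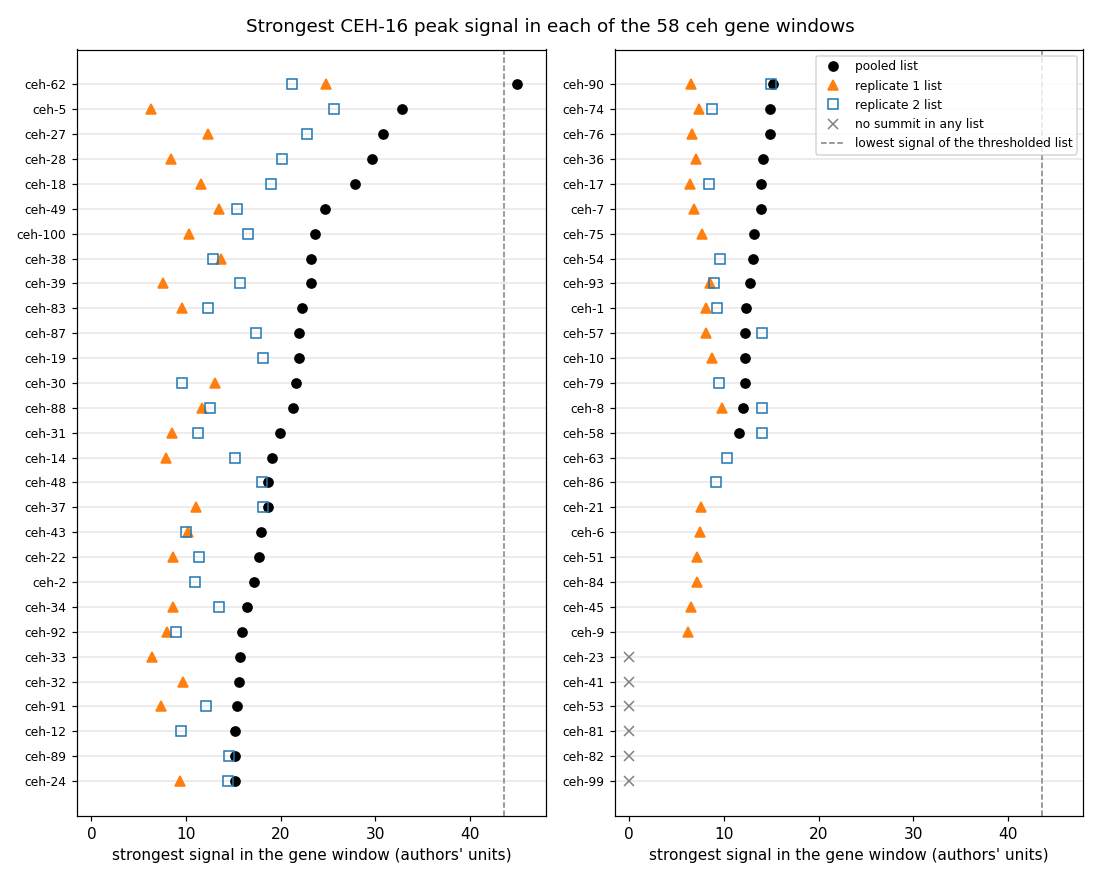
Strongest signal in the window of each of the 58 ceh genes, in the authors' units, in the pooled list (black circles), replicate 1 (orange triangles) and replicate 2 (open blue squares). Genes are ordered by pooled signal, a cross marks a gene in no list, and the dashed line is the lowest thresholded signal (43.6), which ceh-62 alone passes.

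Among the 58, 16 genes were of the NK and related ANTP classes, which include regulators of pharyngeal, mesodermal and neuronal fates. A pooled summit was present for 13 of these 16 (81.25%, interval 54.4 to 95.95, against 72.5% of all genes). They had 29 summits in all, or 0.445 per kb (interval 0.298 to 0.639), against 0.303 for all genes. Both intervals include the value of all genes. The strongest was at ceh-5, 1360 bp upstream of its start and also in the windows of eat-16 and ocrl-1. Its pooled signal was 32.9 and its replicate 2 signal 25.6, with no replicate 1 summit within 200 bp. An intronic summit of ceh-27, an NK-2 gene, had 6.997 in replicate 1, 22.8 in replicate 2 and 30.8 in the pooled list. The summit 824 bp upstream of ceh-28, an NK-2 gene that acts in the pharyngeal neuron M4, had 8.44 in replicate 1, 20.2 in replicate 2 and 29.6 in the pooled list. At the ceh-27 and ceh-28 summits the replicate 2 signal was the higher, and at the ceh-5 summit there was no replicate 1 value to compare. The whole replicate 2 list also had the higher median nuclear signal, 10.8 against 7.93 in replicate 1. Signals of the lists are on scales that may differ.

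At the neighbouring BarH-type genes ceh-30, which protects the male CEM neurons from cell death, and ceh-31, the order of the replicates was mixed. The summit 313 bp upstream of ceh-30 had 13.1 in replicate 1, no replicate 2 summit within 200 bp, and 21.6 in the pooled list. The strongest summit of ceh-31 had 11.3 in replicate 2, no replicate 1 summit within 200 bp, and 19.97 in the pooled list. A replicate 1 summit of 8.51 lay elsewhere in the ceh-31 window. The gene ceh-19, known for its part in the pharyngeal MC neurons, was in the replicate 2 list alone (18.1, pooled 21.9). Lower down came ceh-43, the Distal-less homologue, at a pooled 17.96 in an intron, and ceh-22, an NK-2 gene of pharyngeal muscle, at 17.7 in its 5' UTR. Of the rest, ceh-9 and ceh-51 were in the replicate 1 list alone, at 6.25 and 7.20, and ceh-23, an early known marker of the AIY interneurons, was in no list.

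The ONECUT genes, whose proteins carry a cut domain beside the homeodomain, were represented by 6 genes, and 4 had a pooled summit (66.7%, interval 22.3 to 95.7, against 72.5% of all genes). The strongest pooled signals were 24.7 at ceh-49, 23.2 at ceh-38, 23.2 at ceh-39 and 18.7 at ceh-48. Of these, ceh-48 alone had no replicate 1 summit in its window, and its replicate 2 signal was 17.99. The ceh-49 summit had 6.38 in replicate 1 and 15.3 in replicate 2, and also lay in the window of ttn-1. The strongest replicate 1 summit of ceh-49, at 13.5, lay elsewhere in its window. The ceh-38 summit, in the 5' UTR, had 13.7 in replicate 1 and 10.7 in replicate 2, and was also in the window of malt-1. At ceh-39, which encodes an X-signal element of sex determination, the summit 501 bp upstream had 6.77 in replicate 1 and 15.7 in replicate 2. Its neighbours on X did not share it. The gene ceh-21 was in the replicate 1 list alone, at 7.60, through a summit that its window shares with that of ceh-39, and ceh-41 was in no list.

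The POU genes among the 58 were ceh-18 and ceh-6. The gene ceh-18 acts in gonadal sheath cells to restrain oocyte maturation, and ceh-6 is known for its role in the excretory cell. An intronic summit of ceh-18, 5751 bp into the gene, had 8.59 in replicate 1, 19.01 in replicate 2 and 27.8 in the pooled list, and the TAATTA core lay 7.5 bp from it. The window of ceh-18 spans 16431 bp and held 5 pooled summits. The other POU gene, ceh-6, had no pooled summit and 1 in the replicate 1 list, at 7.46. The LIM gene ceh-14, which specifies the AFD thermosensory neurons among others, had a summit 1264 bp upstream of its start with 7.85 in replicate 1, 8.64 in replicate 2 and 19.1 in the pooled list.

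Each of the 3 ceh genes of the sine oculis family had a pooled summit (100%, interval 29.2 to 100), against 72.5% of all genes. The strongest signals were 16.4 at ceh-34, which specifies pharyngeal neurons, 15.6 at ceh-33 and 15.6 at ceh-32. The median over all genes was 15.0. Of these, ceh-34 alone was in the replicate 2 list, which held 72.7% of all genes. The ceh-34 summit of 16.4 had 8.57 in replicate 1 and no replicate 2 summit within 200 bp. Its nearest start was that of C10G8.2. The paired-like ceh genes had the fewest summits for their length, 9 in 50.5 kb, or 0.178 per kb (interval 0.0814 to 0.338). That interval includes the 0.303 of all genes. Their strongest was at ceh-37, an OTX-type gene of the AWB olfactory neurons. At ceh-37 the pooled signal was 18.7 and the replicate 2 signal 18.2, with no replicate 1 summit within 200 bp. Next came its neighbour ceh-36, the OTX-type gene of the ASE and AWC neurons, at 14.1, then ceh-17 at 13.97 and ceh-54 at 13.1. The AIY regulator ceh-10 had 12.2, ceh-45 was in the replicate 1 list alone, and ceh-53 was in no list.

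The 22 genes with no class assigned here included ceh-62 and ceh-86. Of these, 16 had a pooled summit (72.7%, against 72.5% of all genes). The strongest summit of ceh-100, in an intron, had 23.7 in the pooled list and 16.6 in replicate 2. No replicate 1 summit lay within 200 bp of it. The ceh-100 window of 23503 bp was the longest of the 58 and held 8 pooled summits. An intronic summit of ceh-83 had 9.54 in replicate 1, 12.3 in replicate 2 and 22.2 in the pooled list, and ceh-83 is annotated as a homeodomain-only protein. The neighbouring ceh-81 and ceh-82, on II beside ceh-83, were in no list. The ceh-88 summit (pooled 21.3) had 11.7 in replicate 1 and 12.49 in replicate 2 and lay in the 3' UTR, 231 bp from the start of C49C3.6. The ceh-87 summit (21.9) was nearer to the start of sup-9 than to that of ceh-87. Its replicate 2 signal was 17.4, and the ceh-87 window held no replicate 1 summit.

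The pooled list had no summit for 14 genes, which are named after their values were seen. Beside those named above they were ceh-63, in the replicate 2 list at 10.4, ceh-84, in the replicate 1 list at 7.13, and ceh-99. In all, 6 of the 58 genes (10.3%) were in no list, against 13.9% of all genes, and the same 6 were in neither replicate list, against 16.5% of all genes. They were ceh-23, ceh-41, ceh-53, ceh-81, ceh-82 and ceh-99. An absent summit says only that no peak was listed at this depth, which is unknown.

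Window length bears on these shares. The median window was 4728 bp for the ceh genes and 4027 bp for all genes. With all windows split by length into 4 bins of nearly equal size, among the longest, 14 of 19 ceh genes (73.7%) had a pooled summit, against 89.3% of all genes. In the shortest bin the count was 6 of 8, against 57.7%. In the 2 bins between, the counts were 10 of 15 (66.7%, against 66.5%) and 14 of 16 (87.5%, against 76.6%). The share of all genes thus grew with the window. That of the ceh genes went up and down, with no interval computed. Each bin held too few ceh genes to tell whether they departed from the trend.

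Agreement between the replicates at the ceh genes was modest. Of the 96 pooled summits, 39 had a replicate 1 summit within 200 bp, 60 a replicate 2 summit, and 16 both (16.7%, interval 9.84 to 25.7), against 19.3% of all nuclear pooled summits with both. A pooled summit with both replicates nearby was present in 13 of the 58 windows (22.4%), against 23.96% of all genes. Across the 28 genes in both replicate lists, Spearman's rho of the strongest signal was 0.26, and it was 0.27 across all 9396 such genes. These genes share the same 2 libraries and are not replicates. The strongest signals of a gene in the 2 lists could come from different places in its window, as at ceh-49. Across the 13 mutually nearest pairs of summits, rho was -0.10, and so few pairs do not settle its sign.

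**Figure D3:**
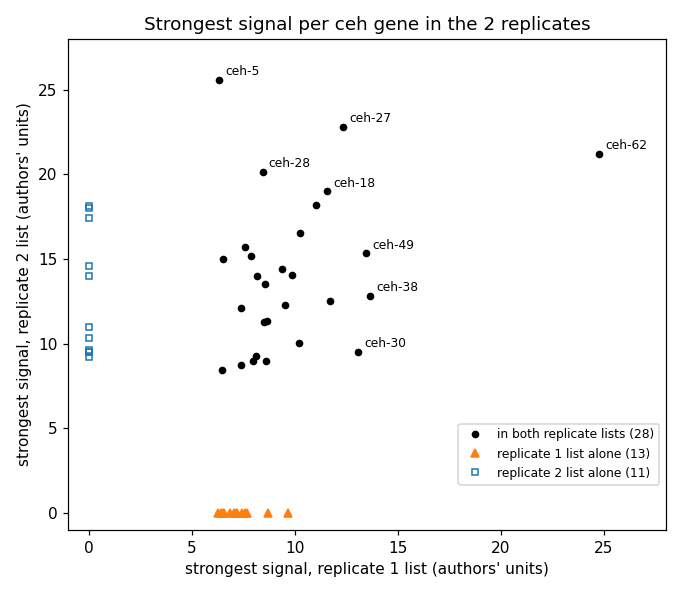
Strongest signal per ceh gene in replicate 1 (x axis) and replicate 2 (y axis), in the authors' units. Black points are the 28 genes in both lists, and the 13 and 11 genes in a single list are drawn at 0 on the axis of the other, with ceh-62 alone above 20 in both.

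By position, 41 of the 96 pooled summits lay upstream of the gene (42.7%, against 43.6% over all gene windows), 31 in introns (32.3%, against 33.9%), 18 in coding sequence (18.8%, against 16.1%), 4 in 3' UTRs and 2 in 5' UTRs. Of the 96, 66 lay in no other gene's window (68.75%, interval 58.5 to 77.8), against 57.4% of the 31667 pairs of a gene and a summit in its window over all genes. For 74 of the 96 the nearest start was that of the ceh gene itself (77.1%, interval 67.4 to 85.0), against 66.7% of those pairs. The count within 200 bp of a tRNA gene was 0 of 96, against 0.827% of the pairs. Within 500 bp of the start there were 14 summits (14.6%, interval 8.21 to 23.3), against 23.03% over all gene windows. In the last 500 bp before the start, the density was 0.241 per kb (interval 0.097 to 0.497), against 0.437 for all genes, where it was highest. The interval of the ceh genes rests on 7 summits and includes the value of all genes.

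**Figure D4:**
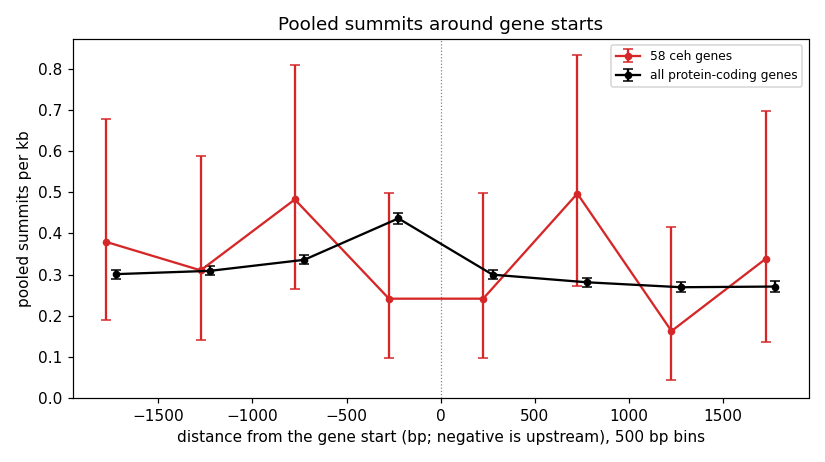
Pooled summits per kb in 500 bp bins around the gene start, for the 58 ceh genes (red) and all protein-coding genes (black), with exact Poisson 95% intervals. The curve of all genes peaks at 0.437 just upstream of the start, and the ceh value in that bin is 0.241 with an interval that reaches 0.497.

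The TAATTA core, the same on both strands, lay within 50 bp of 7 of the 96 summits (7.29%, interval 2.98 to 14.4), against 5.24% of all nuclear pooled summits. The 7 included both ceh-62 summits and that of ceh-18. The rest lay in windows of ceh-31 (16.8, centre 45.5 bp away), ceh-34 (13.8, 32.5 bp), ceh-100 (12.9, 8.5 bp) and ceh-58 (11.6, 47.5 bp). Pooled signals are given first. The ceh-100 summit also lay in the window of lips-15, whose start, 333 bp away, was the nearest. The related word TAATTG, searched on both strands, was near 15 summits (15.6%, interval 9.02 to 24.5), against 9.17%, and the short core TAAT, which TAATTA and TAATTG contain, near 68 (70.8%), against 66.4%. The control word TTTAAA was near 19 (19.8%), against 17.6%. The word GAGAGA was near 6 (6.25%, against 6.73%) and CGCGCA near 0 (against 1.75%). GC content, taken 200 bp to each side of a summit, averaged 33.5% ± 4.58 (SD, 96 summits), against 34.7% ± 5.12 (SD, 29975 summits).

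Most TAATTA sites in the windows were not under a summit. The 58 windows held 199 such sites, or 0.627 per kb, against 0.518 for all genes, and 54 of the 58 windows (93.1%) had at least 1, against 85.1% of all genes. Of the 199, 7 lay within 50 bp of a pooled summit (3.52%, interval 1.43 to 7.11), against 3.42% of the sites in all gene windows. The windows of ceh-37, with 12 sites, and ceh-57, with 10, had none under a summit. A match is a word in the sequence and not a shown binding site.

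Of 30 homeobox genes with other names outside the Hox cluster, 27 had a pooled summit (90.0%, interval 73.5 to 97.9), against 72.5% of all genes. Their windows came to 240 kb, against 317 kb for the 58 ceh genes, so they were longer per gene. Among all genes in the bin of longest windows, 89.3% had a pooled summit. The shares in this paragraph were not adjusted for window length. Both replicate lists held 20 of the 30 (66.7%, interval 47.2 to 82.7), against 47.0% of all genes. The thresholded list held 0 (interval to 11.6%), against 1.19% of all genes. Whether these genes differed from the 58 ceh genes was not tested. Their strongest pooled signals were 30.7 at dve-1, 29.7 at duxl-1, 28.95 at lin-11, a LIM gene of vulval and neuronal fates, and 27.4 at hmbx-1. Their 71 summits came to 0.296 per kb (interval 0.231 to 0.373), against 0.303 for all genes. Of the 6 Hox genes, 5 had a pooled summit (83.3%, interval 35.9 to 99.6, against 72.5%) and 0 a thresholded one, with the strongest at lin-39 (26.4). Of the 269 nuclear hormone receptor genes, 211 had a pooled summit (78.4%, interval 73.0 to 83.2, against 72.5% of all genes) and 0 a thresholded one (interval to 1.36%, against 1.19%). Their density was 0.359 per kb (interval 0.329 to 0.391), against 0.303 for all genes, above the 0.302 of the ceh genes, a difference that was not tested.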

How the data were processed

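In the deposited lists each entry carries a signal, which the authors computed on a scale that no source used here names. Per the labels, reads were placed on ce10 and ce11. The ce11 lists were used and the ce10 lists were not. Per the deposited provenance text, the replicate and pooled lists derive from the alignments and from a further file that also enters the control-normalised tracks, and that file was not analysed here. Aligner and peak caller are not given in the sources used here. Per the labels, the replicate and pooled lists hold peaks and background, and the thresholded list passed the irreproducible discovery rate. The lists hold no read counts, so depth is unknown, and intervals cover counting error only.

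Genes came from Ensembl release 115 (WBcel235, the same assembly as ce11). A window was the gene body plus 2000 bp upstream, a summit could count for several genes, and summits were matched within 200 bp. The mitochondrial genome was left out. Words were sought within 50 bp and GC content within 200 bp of the summit. Sequences were read from the RefSeq genome of WBcel235. Coordinates are 1-based. The RefSeq annotation of that assembly gave the product names.

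The members and lists were chosen with earlier results of these data known, so no set was tested, and shares are given beside all genes. Genes named were those with a thresholded peak, the 20 of highest pooled signal, the 3 of highest signal in each replicate, and up to 4 in each class, and among homeobox genes with other names up to 4. Others were named after their values were seen. Of the listed genes, ceh-44 was not matched by symbol. Assignment was tested on simulated summits. Python 3.11.15, numpy 2.4.6, pandas 2.3.3, scipy 1.17.1 and matplotlib 3.10.9 were used.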

Additional observations from a re-analysis of the deposited data

How the results depend on the processing

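Of 63 alternative values, 44 stayed within 1.5 times the count or inside the interval, 18 moved and 1 changed sign. The cause was not tested for any of them. Some settings widen or narrow the window or remove peaks. The count of ceh genes with a pooled summit ran from 30 to 53 and stayed within 1.5 times 44 in every setting. The gap from all genes moved with the window, at 60.3% against 47.2% in gene bodies, 63.8% against 57.6% with 500 bp, 91.4% against 86.7% with 5000 bp and 51.7% against 51.7% upstream alone. The count with a thresholded summit was 0 with 500 bp upstream (against 0.786% of all genes), 1000 bp (0.961%) or the gene body alone (0.290%). It was 2 (3.45%) with 5000 bp, against 1.80% of all genes, and 2 with the nearest start, against 0.931%. With a replicate left out, 0 to 1 windows held one of the 214 strongest peaks of the other replicate's list, which passed no reproducibility threshold. The count in both replicate lists was 14 with 500 bp, 45 with 5000 bp, 12 in gene bodies and 11 upstream. No share of all genes was set beside these counts, so they say nothing about the family. The median strongest signal was 16.6 with 5000 bp, 12.9 in gene bodies and 11.6 upstream, and 7.39 to 9.83 with a replicate left out, where the lists have their own scales. Summits per kb were 0.158 for the stronger 50% of peaks and 0.202 to 0.280 with a replicate left out, and no density was set for the nearest start, which has no window. Mean GC content was 33.5% to 35.3% with a replicate left out. Spearman's rho was -0.10 over mutually nearest summits, and 0.20 with ceh-62 left out, a setting chosen after seeing the data. No paired analysis was possible because there is 1 group. The unknown depth limits every absent summit.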

Other observations

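The TAATTA core lay within 50 bp of 5 of the 189 nuclear thresholded summits (2.65%, exact 95% interval 0.864 to 6.07). The share over all nuclear pooled summits was 5.24%, so the core was no more frequent in the thresholded list. Both thresholded summits whose nearest start was a ceh gene, at ceh-86 and ceh-62, were among these 5. The other summits with the core were all on X. Their nearest starts were those of cest-16 (signal 111, 3393 bp away), C41A3.2 (106, 15151 bp away) and col-185 (58.6, 3519 bp away). This was noticed after the values were seen, and it was not tested.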
